A study of Mus musculus with 14 samples.

Results

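A set of 286 genomic regions held a BCOR peak in every BCOR library from the embryonic to the adult mouse retina, while the Otx2 peak was missing from at least 1 of the 5 Otx2 libraries. Overlapping peaks (1 bp or more) of all 10 libraries were merged on chromosomes 1 to 19, which gave 39193 regions, and 813 of these held a peak of all 5 BCOR lists. The 286 members are 35.2% of those 813 regions (95% Wilson interval 32.0 to 38.5%, counting error only) and 0.730% of all merged regions. The remaining 527 held a peak of every one of the 10 lists and serve as the comparison. The members were chosen by the presence and absence of peaks in these same lists, so counts of peaks, peak folds and summit places are given as descriptions and carry no test.

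The regions come from CUT&RUN, in which a nuclease tethered by an antibody cuts the DNA beside a chromatin protein and the freed fragments are sequenced. Retinas of CD1 mice whose line is labelled WT were used throughout, with no treatment named for these libraries. BCOR and Otx2 were each profiled at embryonic day 14 (E14; 1 library per protein), on the day of birth (P0; 2 libraries per protein) and in the adult (2 libraries per protein; the labels give no age beyond Adult). The libraries are of whole retina, so a peak can come from any of its cell types, and fewer cells that bind and less binding per cell cannot be told apart. The series text writes the second protein as Otx2/Crx where the sample labels name Otx2. The labels do not say whether the libraries of a pair came from separate animals.

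BCOR is a corepressor that does not itself choose its sites by a DNA-binding domain. It is brought to chromatin by transcription factors such as BCL6, and it is a subunit of a variant Polycomb repressive complex 1 with PCGF1 and the CpG-binding protein KDM2B. Otx2 is a homeodomain transcription factor needed for photoreceptor fate and for bipolar cells, and CRX is its close relative in photoreceptors. The comparison bears on where BCOR was found on chromatin in every library while Otx2 was not. Coordinates below are on mm9, counted from 1. No annotation or sequence of mm9 was used here, so regions are named by position, and their genes and motifs were not analysed here.

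The commonest pattern was a lack of Otx2 in a single adult library. Otx2 Adult replicate 1 alone was missing in 138 of the 286 members, 48.3% (95% Wilson interval 42.5 to 54.0%), and these 138 held peaks of the other Otx2 lists at E14, P0 and in the adult. That list is the shortest of the Otx2 lists, with 7183 peaks on these chromosomes against 14590 in Adult replicate 2. When every Otx2 list was trimmed to the 7183 peaks of the shortest, 387 regions met the rule, which by construction include the 286, and 65 of the 387 had no Otx2 peak. In all, 159 members lacked 1 Otx2 list, 44 lacked 2, 33 lacked 3, 29 lacked 4 and 21 lacked all 5. Without Otx2 Adult replicate 1 in the rule 148 members were left, and without BCOR Adult replicate 1, the shortest list of all with 1339 peaks, there were 650.

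**Figure D1:**
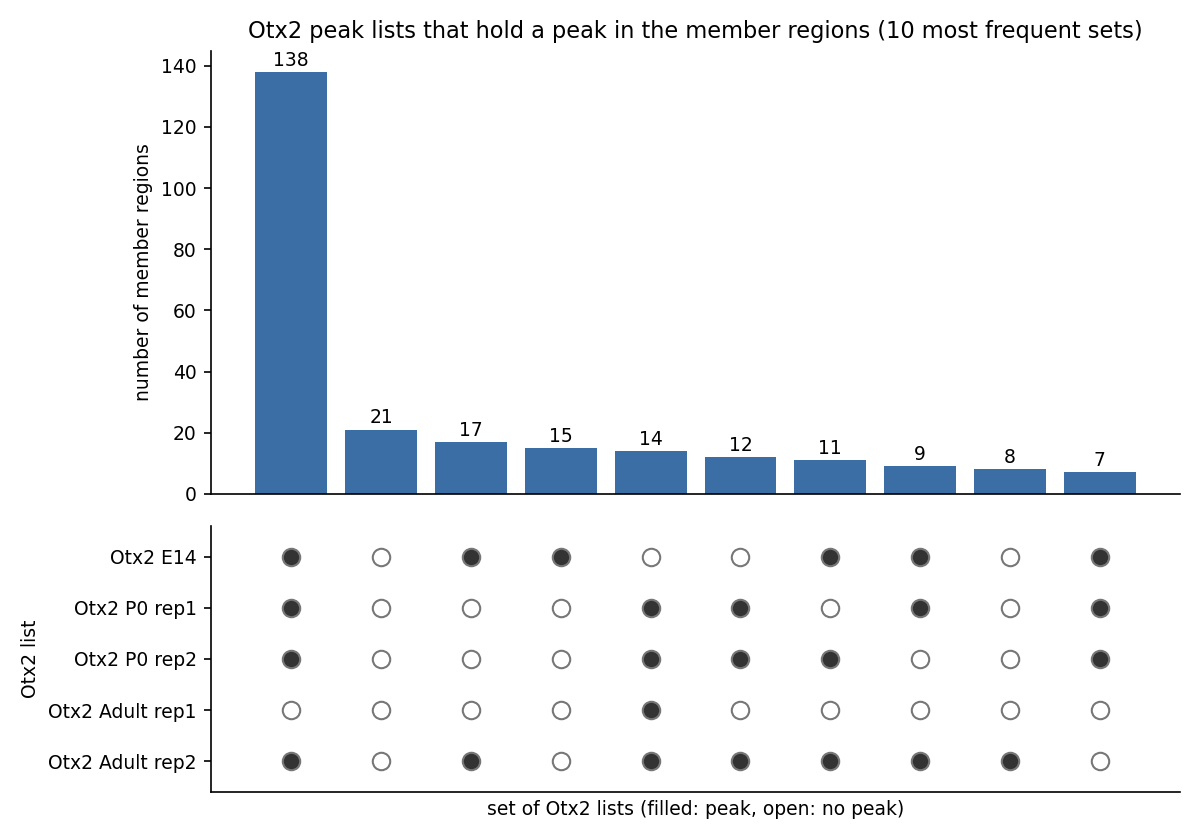
The 10 most frequent sets of Otx2 lists with a peak in the member regions; bars give the number of regions (vertical axis) and filled circles mark the lists that hold a peak. The first bar, 138 regions, lacks Otx2 Adult replicate 1 alone, and the second, 21 regions, has no Otx2 peak in any list.

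Counted by library, 216 of the 286 members had an Otx2 peak at E14 (75.5%), against 21.4% of all merged regions. At P0 the Otx2 lists marked 193 and 203 members (67.5 and 71.0%), where they marked 54.9 and 62.9% of all merged regions. In the adult they marked 27 and 224 members (9.44 and 78.3%), against 17.9 and 37% of all merged regions. Both P0 libraries had a peak in 176 members, 1 of the pair in 44 and neither in 66. Both adult libraries had a peak in 26 members, 1 of the pair in 199 and neither in 61. The counts depend on the shortest lists. Without Otx2 Adult replicate 1 in the rule, 38 members had Otx2 in both P0 libraries, 86 in the other adult library and 78 at E14. Without BCOR Adult replicate 1 the counts were 432 for both P0 libraries, 42 for both adult libraries and 471 for E14. The BCOR lists marked every member by the rule, and 27.1% (E14), 13.2 and 22.1% (P0) and 3.33 and 6.13% (Adult) of all merged regions.

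When either library of a stage was taken as enough, 165 members had Otx2 at all 3 stages and 121 lacked it at a whole stage. Among these 121, 30 regions had Otx2 at P0 and in the adult but not at E14. Another 21 regions had Otx2 at E14 and in the adult without P0, and 15 had it at E14 and P0 without the adult. Otx2 was found at E14 alone in 15 regions, at P0 alone in 10 and in the adult alone in 9, and 21 had none. E14 has 1 library where P0 and the adult have a pair, of which either sufficed, and its list is shorter than those of P0 (8497 against 21759 and 24884 peaks), so the classes cannot be ranked by stage.

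Among regions with a BCOR peak, those with all 5 BCOR lists were rarest where 3 Otx2 lists or fewer held a peak. Over all merged regions, with or without a BCOR peak, 2.07% held all 5 BCOR lists. Of the 4041 merged regions that held a BCOR peak of any list and no Otx2 peak, 21 (0.520%) held all 5 BCOR lists. The share was 1.83, 1.57 and 1.94% with 1, 2 and 3 Otx2 lists. It was 8.53% of 1865 regions with 4 Otx2 lists and 28.5% of 1850 regions with all 5. These shares rest on the same peak calls that define the set.

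BCOR peaks in the members had higher median folds than those in the regions with all 10 lists at P0 and in the adult, and a lower one at E14. The lower E14 value was not seen in the 138 members that lacked Otx2 Adult replicate 1 alone, with a median of 8.69. The fold used here is the authors' value for the strongest peak of a list in the region, the ratio of signal to local background at the summit. At E14 the members' BCOR fold ranged from 1.52 to 22.1, with a median of 7.99, against a median of 8.69 in the 527 regions of all 10 lists. At P0 the members' medians were 8.18 (1.57 to 50.3) in replicate 1 and 12.1 (1.70 to 78.5) in replicate 2, against 6.40 and 9.75. In the adult they were 5.67 (1.49 to 31.9) and 7.16 (1.64 to 49.0), against 5.03 and 6.97. The ranges of both sets overlapped over most of their length in every list.

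As a percentile of the fold within its own list, the median member stood at 84.4 in BCOR E14, against 88.8 for regions with all 10 lists. It stood at 83.8 and 91.3 in the P0 lists, against 68.6 and 84.4. In the adult lists it stood at 63.0 and 73.0, against 48.7 and 71.4. The difference was thus 15.2 and 6.85 percentile points at P0, 14.3 and 1.60 in the adult and -4.39 at E14. Its size differed between the libraries of each pair, most of all in the adult. Among the 148 members outside the class that lacked Otx2 Adult replicate 1 alone, the differences were 11.3 and 5.72 at P0, 17.4 and 1.60 in the adult and -6.93 at E14. In the class of 138 they were 17.7 and 7.56 at P0, 9.75 and 1.72 in the adult and -0.026 at E14.

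Averaged over the 5 BCOR lists, the median percentile was 74.3 in the members and 68.8 in the regions with all 10 lists, 5.52 higher. When BCOR Adult replicate 1 was left out and the members chosen anew, the difference was 0.552.

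**Figure D2:**
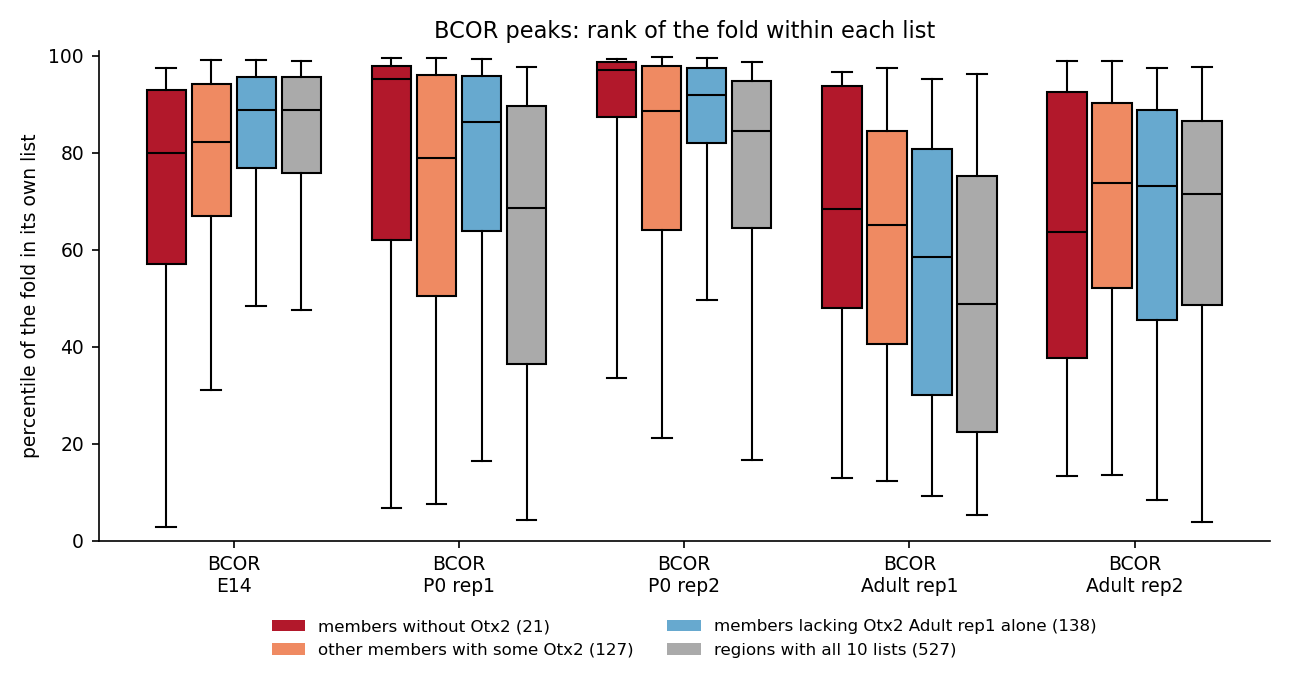
Percentile of the BCOR fold within each of the 5 BCOR lists (vertical axis) for 3 classes of members and for the 527 regions with all 10 lists; boxes span the quartiles, lines mark medians and whiskers reach the 5th and 95th percentiles. The classes overlap widely, and at P0 the medians of all 3 member classes lie above that of the regions with all 10 lists.

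Across the 286 members the BCOR folds of the P0 pair went together (Spearman's rho 0.913), and those of the adult pair less closely (0.649). Between stages rho was 0.472 for E14 and P0 replicate 2, 0.328 for P0 replicate 2 and Adult replicate 2, and 0.285 for E14 and Adult replicate 2. Points of these correlations are regions of the same libraries, each selected for a peak in both lists. Within a stage, the BCOR and Otx2 folds had a rho of 0.377 at E14 over 216 members, 0.118 in the P0 replicates 2 over 203 and 0.0906 in the Adult replicates 2 over 224.

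The members with the highest BCOR rank, averaged over the 5 BCOR lists, had weak Otx2 peaks or none in most Otx2 lists. The first, chr11:115396799-115398026, had BCOR folds of 14.3 at E14, 50.3 and 78.5 at P0, then 20.6 and 30.9 in adult retina, the highest BCOR folds of any member at P0. Its Otx2 folds were 7.54 at E14, 3.99 in P0 replicate 1 and 5.36 in Adult replicate 2, with no peak in the other Otx2 lists. BCOR was high here in all 5 libraries, at or above the 99.3 percentile of each list. The Otx2 peaks stood at the 72.5, 11.0 and 17.4 percentiles of their lists.

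The second, chr10:70061227-70062923, had the highest adult BCOR folds of the set, 31.9 and 49.0, beside 13.7 at E14 and 29.4 and 41.9 at P0. Its Otx2 folds were 3.72 at E14, 3.93 in P0 replicate 1, 9.43 and 45.3 in the adult, with no peak in P0 replicate 2. Otx2 at this region was low at the early stages and high in Adult replicate 2, and the adult Otx2 libraries differed widely.

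The third, chr11:49838212-49839252, had BCOR folds of 14.1 at E14, 36.2 and 51.4 at P0, then 15.4 and 24.8 in adult retina. Otx2 had folds of 4.48 at E14 and 4.64 in Adult replicate 2 and no peak at P0. Ranked within each list, BCOR was near the top at every stage. Its percentiles were 99.3 at E14, 99.9 and 99.95 at P0, then 99.2 and 99.7 in adult retina. The region chr5:76568939-76569825 had BCOR folds of 12.0 at E14, 34.8 and 46.0 at P0, then 13.2 and 24.0 in adult retina, with Otx2 at 6.36 and 7.68 at P0 and 5.05 in Adult replicate 2. At chr12:4913867-4914819 BCOR had 15.5, 23.1 and 36.4, 12.0 and 19.4 in the same order, and Otx2 had 4.68 at E14, 3.47 and 2.69 at P0 and no adult peak. The sixth, chr15:101004034-101004937, lacked Otx2 Adult replicate 1 alone. Its BCOR folds were 12.7 at E14, 18.1 and 29.6 at P0, then 10.9 and 15.5 in adult retina, and its Otx2 folds were 5.59, 4.84 and 3.62, and 9.35 in Adult replicate 2. In these 6 regions the 5 BCOR summits lay within 22 to 91 bp of each other.

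Among members with 4 of 5 Otx2 lists, the next in BCOR rank were chr10:84647567-84648646 and chr7:17509075-17509994, which both lacked Otx2 Adult replicate 1. The former had BCOR folds of 11.7, 23.7 and 34.9, 10.4 and 14.4 from E14 to the adult, and Otx2 folds of 7.01 at E14, 16.3 and 9.81 at P0 and 12.2 in Adult replicate 2. In the latter BCOR had 13.9, 20.0 and 29.2, 12.1 and 11.8, and Otx2 had 9.77, 7.94 and 9.74, and 19.1 in Adult replicate 2. In the adult, the Otx2 fold lay above both BCOR folds at chr7:17509075-17509994 and between them at chr10:84647567-84648646. Read depth and control are unknown, so folds of different lists share no known scale. Ranked within its own list, adult Otx2 stood lower than BCOR at both regions. Both were picked for a high BCOR rank and the lists differ in length, so this order reflects the choice. At chr7:17509075-17509994 the percentiles were 79.9 for Otx2 against 97.5 and 94.8 for BCOR. At chr10:84647567-84648646 they were 64.2 against 95.2 and 97.5.

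**Figure D3:**
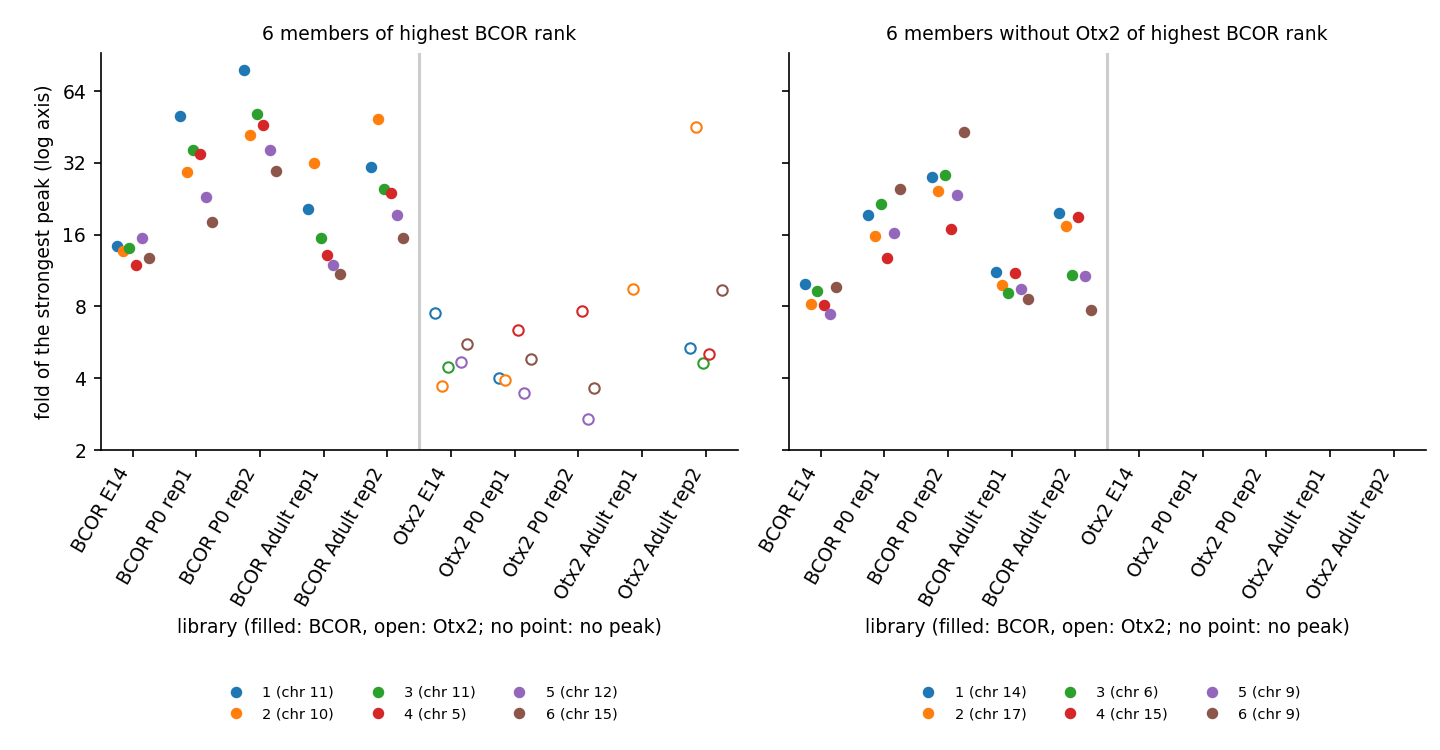
Fold of the strongest peak in each of the 10 libraries (horizontal axis; log scale on the vertical axis) for the 6 members of highest mean BCOR rank and the 6 of highest rank without Otx2; filled points are BCOR, open points Otx2, and no point means no peak. In the first panel the only open point above 10 is chr10:70061227-70062923 in Otx2 Adult replicate 2 at 45.3.

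The 21 members without any Otx2 peak are 7.34% of the set (95% Wilson interval 4.85 to 11.0%). Their BCOR folds had medians of 7.43 at E14, 12.8 and 17.7 at P0, then 5.99 and 6.30 in adult retina. At P0 and in Adult replicate 1 these lay above the medians of all members, and at E14 and in Adult replicate 2 below them. The median percentiles were 95.2 and 97.1 at P0 and 68.3 in Adult replicate 1, each the highest of the 3 classes of members. They were 79.9 at E14 and 63.6 in Adult replicate 2, each the lowest of the 3. The adult replicates thus differed in direction. Without BCOR Adult replicate 1 in the rule, 44 members had no Otx2 peak.

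The strongest of them, chr14:103498029-103499235, had BCOR folds of 9.89 at E14, 19.4 and 28.0 at P0, then 11.2 and 19.8 in adult retina, and its 5 summits lay within 19 bp. The nearest Otx2 peak of any list was 29165 bp from its BCOR summit. At chr17:13896851-13897952 BCOR had 8.21, 15.9 and 24.3, 9.84 and 17.4, and the nearest Otx2 peak was 151351 bp away, the farthest of the 21. BCOR at these regions thus stood far from any Otx2 peak in these lists.

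Other regions without Otx2 had an Otx2 peak close by. The region chr6:146582629-146583585 had BCOR folds of 9.28, 21.6 and 28.4, 9.13 and 10.8, with the nearest Otx2 peak 7826 bp away. At chr15:58912802-58914260 BCOR had 8.11, 12.8 and 16.9, 11.1 and 18.9, and the nearest Otx2 peak was 1747 bp away. On chromosome 9, chr9:102736777-102737958 had 7.42, 16.3 and 23.5, 9.48 and 10.8, with Otx2 at 6042 bp. The sixth, chr9:31839156-31840767, had 9.69, 24.9 and 43.1, 8.55 and 7.71, with Otx2 at 1605 bp. Over all 21, the nearest Otx2 peak lay at 437 to 151351 bp with a median of 11650 bp, within 1 kb in 3 regions and within 10 kb in 10.

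Where a list lacked a peak in any member, its nearest peak was usually far off. From the members' BCOR summits the median distance was 48053 bp for Otx2 E14 (70 members), 39147 and 27053 bp for the P0 lists (93 and 83), and 73185 and 28670 bp for the adult lists (259 and 62). Within 1 kb lay 2, 4, 7, 1 and 1 of these members in the same order. For the 138 that lacked Otx2 Adult replicate 1 alone, 0 had a peak of that list within 1 kb and 12 had it within 10 kb. An absent peak was thus seldom a peak just outside the merged region.

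Otx2 peaks that the members did hold ranked lower than those of the regions with all 10 lists. Members were chosen for a missing Otx2 peak and the comparison regions for Otx2 in every list. The lower rank therefore cannot be told apart from that choice. The median percentile of the Otx2 fold was 58.1 at E14 against 85.3, 50.2 and 48.8 at P0 against 84.7 and 84.4, and 41.1 and 48.4 in the adult against 51.1 and 85.8. In folds the members had medians of 6.43 (2.27 to 30.6) at E14, 6.44 (2.60 to 20.7) and 6.37 (2.55 to 21.7) at P0, and 6.59 (1.42 to 27.1) and 8.66 (1.44 to 59.4) in the adult. The regions with all 10 lists had 9.08 at E14, 13.3 and 13.8 at P0, then 7.43 and 24.2 in adult retina. The gap was widest in Adult replicate 2, the list where the members' median stood 37.4 percentile points lower.

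Lower Otx2 ranks than in the regions with all 10 lists were also seen in the 138 members that lacked Otx2 Adult replicate 1 alone. This holds for the 4 lists these members held, with the same limit. Their median percentiles were 67.8 at E14, 54.5 and 55.0 at P0 and 51.0 in Adult replicate 2. Their BCOR medians, 8.69 at E14, 8.64 and 12.5 at P0, then 5.45 and 7.16 in adult retina, compare with 7.64, 7.53 and 11.5, then 5.86 and 7.16, in the other 148 members.

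The Otx2 peaks were also narrower in the members, while the BCOR peaks were of like width. The rule sorted the regions by their Otx2 peaks, so the narrower width cannot be told apart from that choice. The strongest Otx2 peak had a median width of 360 bp at E14 against 492 bp in the regions with all 10 lists, 381 and 421 bp at P0 against 699 and 715, and 321 and 396 bp in the adult against 447 and 716. BCOR peaks had 637 bp at E14 against 642, 509 and 695 bp at P0 against 509 and 658, and 294 and 375 bp in the adult against 332 and 414. The merged regions measured 298 to 2060 bp in the members, with a median of 857, and 421 to 5797 bp with a median of 976 where all 10 lists had a peak.

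**Figure D4:**
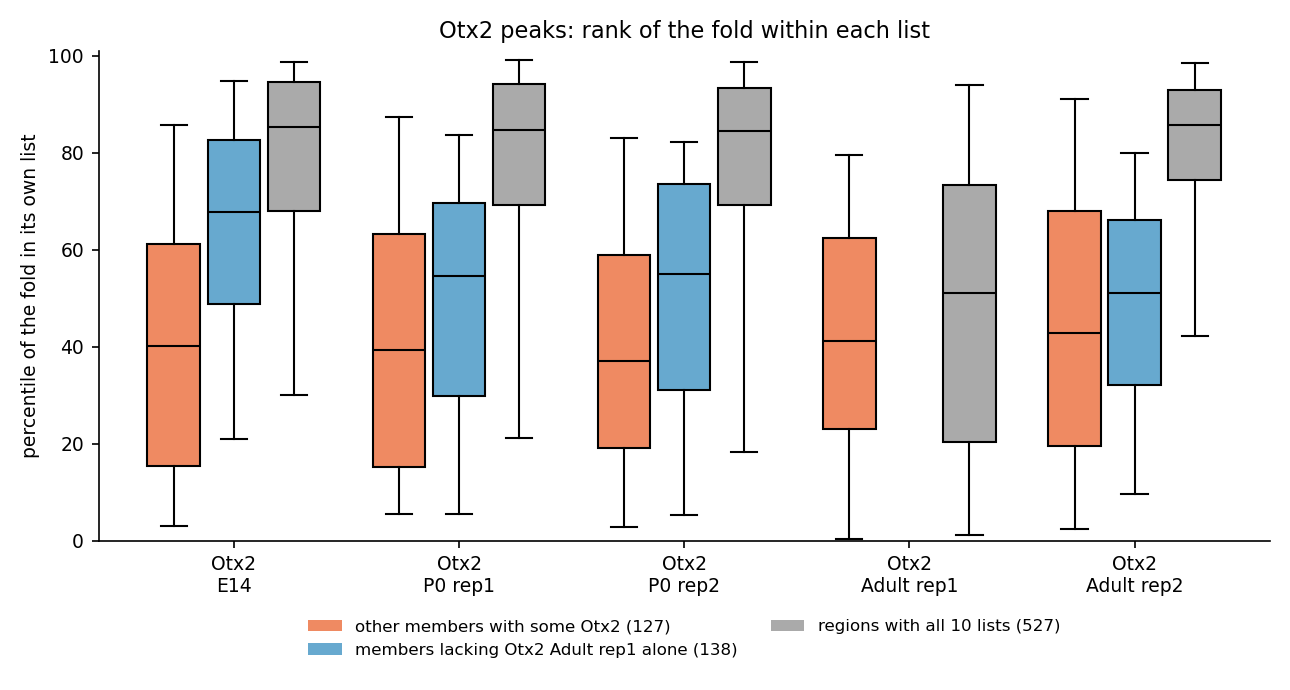
Percentile of the Otx2 fold within each Otx2 list (vertical axis) for the class of 138 members, the other members that hold a peak of that list and the 527 regions with all 10 lists; boxes span the quartiles, lines mark medians and whiskers reach the 5th and 95th percentiles. Outside Adult replicate 1, the medians of the class of 138 lie at 51.0 to 67.8, those of the other members at 37.0 to 42.7 and those of the regions with all 10 lists at 84.4 to 85.8.

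Members that lacked Otx2 E14 alone had higher Otx2 folds than the members at large. They were picked for Otx2 peaks in every later list, while 259 members lacked Adult replicate 1. The higher folds thus cannot be told apart from that choice. The 14 regions that lacked Otx2 E14 alone had median Otx2 folds of 9.70 and 9.54 at P0, then 8.05 and 19.3 in adult retina, against 6.44, 6.37, 6.59 and 8.66 over all members with a peak. The region chr5:34630638-34631475 had Otx2 at 12.5 and 13.2 at P0, then 24.2 and 43.2 in adult retina, and BCOR at 6.81 at E14, 13.5 and 17.8 at P0, then 11.0 and 8.10 in adult retina. At chr4:149148005-149148692 Otx2 had 14.6 and 14.3, then 12.9 and 46.0, and BCOR had 8.71, 8.34 and 12.1, 7.16 and 10.8. BCOR was thus called at E14 in both, where the Otx2 list had no peak.

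The reverse, Otx2 at E14 alone, was seen in 15 members with weak Otx2. Their Otx2 E14 fold ranged from 3.69 to 7.26 with a median of 4.43, at the 16.5 percentile of that list, while their BCOR fold at E14 had a median of 8.59. The strongest in BCOR rank, chr3:103083019-103084015, was picked after its values were seen. It had an Otx2 fold of 5.67 at E14 and BCOR folds of 9.42, 20.6 and 37.5, 9.12 and 15.4 from E14 to the adult. Its Otx2 summit lay 265 bp from the BCOR summit.

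For Otx2 in the adult alone, the 9 members had a median fold of 7.53 in Adult replicate 2, and 1 of them also had a peak in Adult replicate 1. The strongest in BCOR rank, chr11:110198292-110199364, likewise picked after its values were seen, had an Otx2 fold of 4.34 in Adult replicate 2, with the summit 32 bp from that of BCOR. Its BCOR folds were 8.49, 14.1 and 21.5, 6.47 and 16.3.

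The 5 BCOR summits of a member lay about as close together as those of the regions with all 10 lists. They fell within 200 bp in 214 of the 286 members (74.8%), with a median span of 126 bp and a maximum of 926 bp. Without Otx2 Adult replicate 1 in the rule the number was 107, and without BCOR Adult replicate 1 it was 499. In the regions with all 10 lists this was 405 of 527 (76.9%), with a median span of 112 bp, and it was 76.1% over all 813 regions with lasting BCOR. A single peak per BCOR list was found in 273 members and in 486 of the 527.

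Otx2 summits fell on the BCOR summits in most members that had them. The Otx2 summit lay within 100 bp of the median BCOR summit in 155 of 216 members at E14 (71.8%), against 72.7% over all regions with both. At P0 it did so in 134 of 193 and 149 of 203 members (69.4 and 73.4%), against 68.8 and 69.7%. In the adult it did so in 24 of 27 and 179 of 224 (88.9 and 79.9%), against 67.8 and 71.1%. The shares at E14 and P0 are near those over all regions. In the regions with all 10 lists they were 80.5% at E14, 77.0 and 78.4% at P0, then 73.8 and 80.5% in adult retina.

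At E14 the distance was larger in members with fewer Otx2 lists. The median distance from the Otx2 E14 summit to the median BCOR summit was 144 bp in the 15 members with that list alone, where 33.3% lay within 100 bp. It was 82 bp with 2 Otx2 lists (25 members), 61 bp with 3 (31 members), 31 bp with 4 (145 members) and 38 bp in the regions with all 10 lists. In Adult replicate 2 it was 25.5 bp in the 8 members with that list alone, 65 bp with 2 lists, 42 bp with 3 and 43 bp with 4. In P0 replicate 1 the medians were 159, 156, 58 and 46 bp for 1 to 4 lists, the first over 2 members, and in P0 replicate 2 they were 35, 112, 46 and 43 bp. The order seen at E14 was thus also that of P0 replicate 1 but not of P0 replicate 2 or Adult replicate 2. The weak E14 peaks of the first class ranked low in their list, and the part of peak strength in the distance was not tested.

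**Figure D5:**
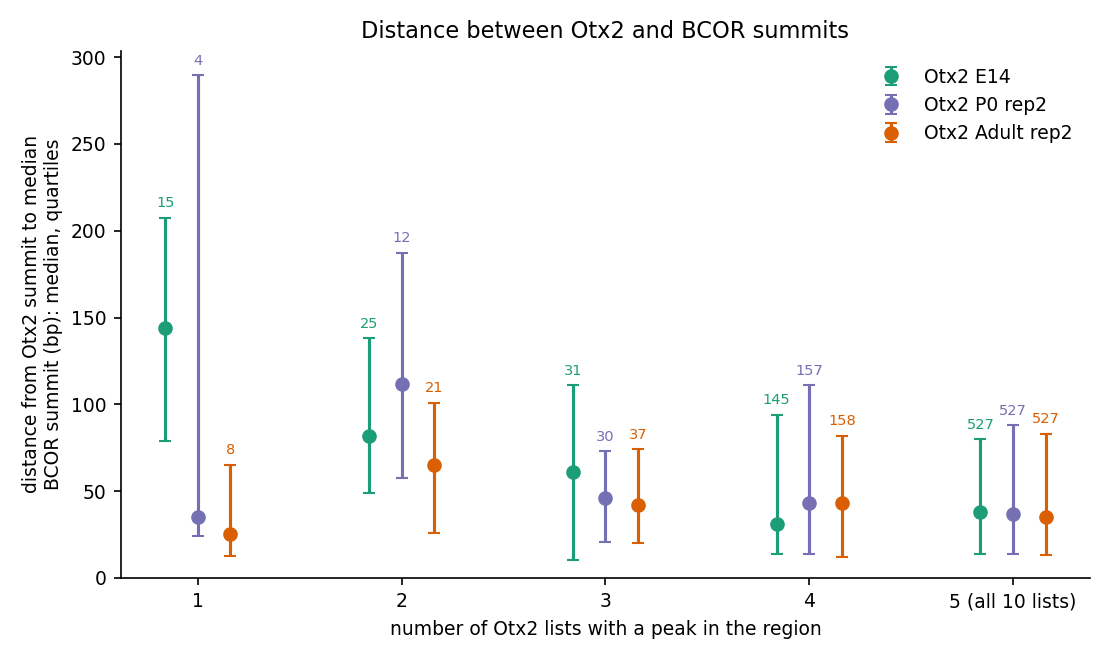
Distance in bp between the Otx2 summit and the median BCOR summit (vertical axis) by the number of Otx2 lists with a peak in the region, for Otx2 E14, P0 replicate 2 and Adult replicate 2; points are medians, bars the quartiles and numbers the regions. The E14 medians are 144, 82, 61, 31 and 38 bp from left to right.

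At the edge of the rule, the regions just inside are those whose Otx2 peaks ranked highest, and the regions just outside are those with the weakest Otx2 q-value. Just inside, beside the 2 regions above that lacked Otx2 E14, chr11:115885739-115886156 held every Otx2 list but Adult replicate 1, with Otx2 folds of 8.05 at E14, 10.8 and 12.6 at P0 and 22.8 in Adult replicate 2. Just outside, chr11:118901958-118903164 held all 10 lists, with an Otx2 fold of 2.37 and a −log10 q of 1.33 in Adult replicate 1, and chr9:121766655-121767374 and chr2:18597938-18599189 had 3.22 and 2.91 there, at a −log10 q of 1.41 and 1.60. At P0 the Otx2 folds of these 3 were 3.71 and 3.61, 10.5 and 10.3, and 4.89 and 3.45. They were below the P0 folds of the regions just inside. The regions inside were picked for strong Otx2 and those outside for weak Otx2, so this order reflects the choice. On the BCOR side, 488 regions with incomplete Otx2 held 4 of the 5 BCOR lists, and 364 of them lacked BCOR Adult replicate 1. The highest in BCOR rank of those 488 was chr15:73253323-73254246, with folds of 10.5 at E14, 15.7 and 21.8 at P0 and 11.2 in Adult replicate 2. Next came chr8:107813013-107813807 with 13.5, 40.9 and 52.9, and 8.66, and chr8:126544677-126545550 with 12.2, 15.9 and 23.3, and 9.13 and no Otx2 peak. At P0 the folds of chr8:107813013-107813807 were among those of the 6 strongest members, and those of the other two were below them all.

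In 4 members the fold was under 2 in a BCOR list, against 10 of the 527 regions with all 10 lists. The member chr9:3027156-3028217, among the 21 without Otx2, had BCOR folds of 1.52, 1.57 and 1.82, 1.49 and 1.64 at a −log10 q of 55.9 to 153, and an Otx2 peak lay 437 bp away. Its neighbour chr9:3035695-3036492 and the region chr2:98502403-98502941 had BCOR folds of 1.58 to 3.22 and lacked Otx2 at P0 in both libraries. Their BCOR −log10 q was 98.8 to 285 and 354 to 1755. Over all members its medians in the BCOR lists were 8.18 to 31.2, so low folds came with extreme q-values in these regions. At chr14:69780070-69780502 the folds were 22.1 for BCOR and 30.6 for Otx2 at E14 and between 1.51 and 2.17 in the other lists with a peak, where the −log10 q of BCOR was 0.872 to 2.72. Without these 4 regions 282 members remained, 20 of them without Otx2.

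Members were scattered over the genome. Chromosome 11 held 36 of the 286 (12.6%), where it held 10.1% of the regions with all 10 lists and 7.32% of all merged regions. Chromosome 7 held 13 members (4.55%), against 9.30% of the regions with all 10 lists and 5.99% of all regions. The median gap from a member to its nearest other member was 1603490 bp, against 699782 bp among the 527 regions with all 10 lists. Another of the same kind lay within 10 kb of 20 of the 286 members and of 18 of the 527. Within 100 kb the counts were 38 and 102. Gaps and counts of neighbours depend on the number of regions in a set, so those of the 286 and the 527 cannot be compared directly. A region with all 10 lists lay within 10 kb of 8 members and within 100 kb of 41.

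The closest members differed in their Otx2 lists. No set of Otx2 lists was shared by more than 48.3% of the members. Whether close members differ more often than others was not tested. On chromosome 9, chr9:82867654-82868298 and chr9:82868748-82869677 were 449 bp apart, with Otx2 in 2 and 4 lists. On chromosome 5, chr5:23929328-23929886 and chr5:23930405-23932132 were 518 bp apart, with Otx2 in 4 lists and 1 list. On chromosome 8, chr8:96333827-96335236 and chr8:96337015-96337748 were 1778 bp apart, with Otx2 in 2 lists and 1 list.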

How the data were processed

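The authors deposited 1 CUT&RUN peak list per library. The submitters' processing notes name MACS2, Bowtie2 and deepTools and the builds mm10 and mm9, without versions or roles. For each peak the deposited lists give a score, a fold (ratio of signal to background), a −log10 p-value, a −log10 q-value and the summit. Neither the control nor the threshold is given in the sources used here. Peak ends and chromosome names fit mm9. Read depth is unknown, so list lengths were not compared as binding. The largest q-value was 0.0999 and 0.0996 in the E14 lists, 0.248 in the adult lists of BCOR and 0.0466 to 0.0496 elsewhere.

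Peaks on chromosomes 1 to 19 were merged with Python 3.11.15 and pandas 2.3.3, and the merging was tested on simulated data. A region's fold in a list is that of its peak with the highest −log10 q. Ranks are percentiles of the fold within a list, and distances to an Otx2 peak run from the median BCOR summit to its edge. Regions were named by BCOR rank: the 6 highest, the 6 highest without Otx2, the 4 highest with 4 Otx2 lists and those just outside with 4 BCOR lists. The other regions at the edge of the rule were named by Otx2 rank (inside) or Otx2 q-value (outside). The 3 closest pairs were named by their gap, and some regions are marked as picked later. Members and rules were chosen with earlier results of these data known. The RNA tables were not used here.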

Additional observations from a re-analysis of the deposited data

Results flagged for a closer look

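The BCOR rank of the members relative to the regions with all 10 lists differed in sign between stages. The difference of the median percentiles was -4.39 in the single E14 library, 15.2 and 6.85 in the P0 libraries and 14.3 and 1.60 in the adult libraries. In the 138 members that lacked Otx2 Adult replicate 1 alone the E14 difference was -0.026, and in the other 148 it was -6.93. This difference between stages was not tested, since the members were chosen on these lists and E14 has 1 library.

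Chromosome X was outside the rule. On it 5 of 11 regions with all 5 BCOR lists also lacked an Otx2 list.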

How the results depend on the processing

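Each of the 8 results was recomputed under 16 alternatives, of which 2 (either Otx2 library of a stage counts, and no BCOR fold under 2) were added after the data were seen. Of the 128 values, 104 stayed within 1.5 times of a main count, within the interval of the share or within 1 SD of the rank difference. That SD, 8.36 percentile points over the libraries, exceeds the difference of 5.52, so its 16 values say nothing about stability. With Otx2 lists of equal length the share of lasting BCOR regions that are members was 47.6%, with 65 members without Otx2, 66 with both P0 lists and 111 with both adult lists. With summit windows the share was 40.1%. Where either Otx2 library of a stage counted, there were 121 members (14.9%), with Otx2 at P0 in 55, in the adult in 60 and at E14 in 51, and 90 had BCOR summits within 200 bp.

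Leaving out 1 P0 or adult library at a time gave 148 to 650 members, 18.2 to 44.2% of the lasting regions. The E14 libraries, 1 per protein, were not left out, so the dependence on them was not examined. Members without Otx2 numbered 21 to 44. Those with all P0 lists numbered 38 to 432, with all adult lists 22 to 86 and with E14 78 to 471. BCOR summits lay within 200 bp in 107 to 499. The BCOR rank difference was 0.552 to 5.86 percentile points against 5.52. Among the libraries left out, the counts moved by over 1.5 times only for Otx2 Adult replicate 1 (148 members) or BCOR Adult replicate 1 (650 members). The rule then asks for 1 list less. With the q-value threshold of 0.0466 in every list, 265 of the 286 remained members. No paired analysis was possible because the results come from no test.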
